A study of Astyanax mexicanus with 6 samples.

Results

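The regions described here are stretches of chromosome that were called open in the liver of Pachon cavefish and in neither of the other forms of Astyanax mexicanus examined. A region qualified when, after overlapping or touching peaks of all lists had been joined into union regions, it lay on 1 of the 25 numbered chromosomes, held at least 1 Pachon peak and held no Surface or Tinaja peak. Of 75330 union regions on chromosomes, 5609 met that rule, which is 7.45% of them (Wilson 95% interval 7.26 to 7.64). On all sequences together, unplaced scaffolds included, there were 110214 union regions. The regions were chosen by the presence and absence of called peaks in the same lists, so their number and the absence of Surface and Tinaja peaks in them are a description and not a test.

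Accessibility was measured by ATAC-seq. The enzyme used, Tn5 transposase, inserts sequencing adapters into DNA that is not wrapped tightly in nucleosomes. The groups were livers of the Pachon cave form, livers of the Tinaja cave form and, as the form against which the caves are set, livers of surface fish. Each had 2 samples by the labels (6 in all) and 1 deposited peak list. The labels give no age, sex, feeding state or stock for the fish, and do not say whether a sample is 1 fish or a pool. The lists held 72521 peaks for Pachon, 84653 for Tinaja and 73380 for Surface, of which 50115, 58238 and 50924 lay on chromosomes. A single list for each form leaves the variation among replicates unmeasured, so no test between forms was made, and the depth behind the peaks is unknown. Intervals below cover counting error only. Because whole livers were used, a change in the mix of cell types and a change of accessibility within a cell type cannot be told apart.

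Open chromatin in a vertebrate liver falls broadly into promoters, which tend to be wide and to be open in many tissues, and distal elements such as enhancers, which tend to be narrower and to vary more between tissues, individuals and populations. Pachon fish belong to a cave lineage known for loss of eyes and pigment and, in metabolism, for fat storage, resistance to starvation and altered control of blood sugar, traits in which the liver takes part. Regions open in 1 population alone are one place where regulatory differences between such lineages are looked for. Which genes lie near the Pachon-only regions was not analysed here, since neither a genome nor an annotation of the lists' build was used, and no sequence is shown for the same reason.

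The Pachon-only regions were few and narrow beside the rest of the Pachon peaks. Each consisted of exactly 1 Pachon peak. Surface-only and Tinaja-only regions likewise held 1 peak each, so this does not set the Pachon-only regions apart. Nor does it exclude close neighbours, since 103 gaps between successive Pachon-only regions were within 1 kb. They made up 11.5% of the 48851 chromosomal regions that Pachon held (Wilson 95% interval 11.2 to 11.8) but only 6.77% of the base pairs in the Pachon list, 2.14 Mb in all. For Surface the corresponding shares were 19.4% of 50086 regions and 12.0% of base pairs, and for Tinaja 20.8% of 57178 regions and 12.9% of base pairs. In number, Pachon-only regions (5609) stood below Tinaja-only regions (11867) and Surface-only regions (9698). The Pachon-only number was 9747 when a foreign peak had to overlap reciprocally by 50% to count as shared, and 849 when Pachon peaks under 500 bp were left out. In the lists as deposited, Pachon had the smallest single-form class, in a set of lists of which it was also the shortest on chromosomes.

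In length the Pachon-only regions ran between 221 and 3084 bp, with a median of 322 bp and quartiles of 261 and 419 bp. The shortest value is the shortest peak in the chromosomal part of the whole Pachon list, and 281 Pachon-only regions (5.01%) lay within 10 bp of it. Under 300 bp lay 2338 of them (41.7%), and under 500 bp 4760 (84.9%). At the other end, 118 (2.10%) reached 1000 bp and 6 reached 2000 bp. Pachon peaks elsewhere were wider, though the rule favours narrow peaks, which meet other peaks less easily. Those in regions shared with Surface alone had a median width of 373 bp, those shared with Tinaja alone 397 bp and those in regions of all 3 forms 593 bp. The single-form classes of the other lists had medians of 338 bp for Tinaja and 354 bp for Surface. Of their regions, 2.84% in Tinaja and 3.21% in Surface reached 1000 bp.

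**Figure D1:**
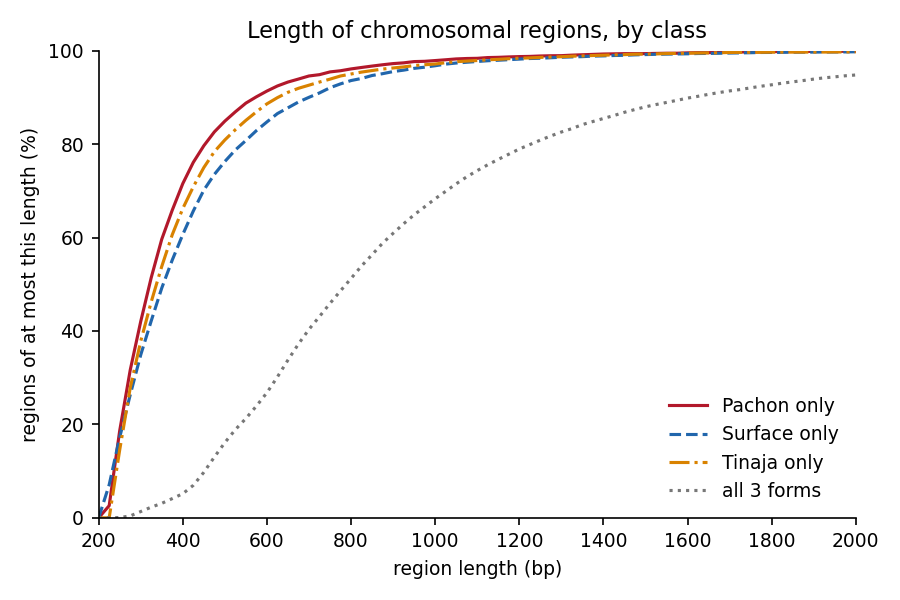
Cumulative share of chromosomal regions (percent, vertical axis) at or below a given length (bp, horizontal axis) for Pachon-only, Surface-only and Tinaja-only regions and for regions of all 3 forms. The Pachon-only curve rises earliest above 250 bp, with a median of 322 bp, against 789 bp for merged regions of all 3 forms, which are longer in part because peaks were joined.

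The share of Pachon peaks that stood alone varied with their width. The rule bears on this, since a narrow peak meets other peaks less easily, and no test was made. Of Pachon peaks under 250 bp, 34.7% had no counterpart (Wilson 95% interval 33.0 to 36.4). The share was 19.5% from 300 to under 400 bp, 4.81% from 500 to under 750 bp, and 0.666% (6 of 901 peaks, interval 0.306 to 1.45) from 2000 bp upward. It did not fall between every pair of neighbouring width classes, with 1.96% from 1000 to under 1500 bp and 2.12% from 1500 to under 2000 bp, whose intervals overlap. At a given width the Pachon share was the lowest of the 3 lists in all 9 width classes. Under 250 bp it was 34.7%, against 54.9% in Tinaja and 43.1% in Surface, and from 500 to under 750 bp it was 4.81%, against 10.9% in Tinaja and 12.6% in Surface. From 1500 to under 2000 bp the Pachon interval overlapped those of both other lists. From 2000 bp upward it overlapped that of Surface. Overlap of intervals does not settle the order, which was not tested. The number of foreign peaks a list could meet was similar for Pachon (109162 Surface and Tinaja peaks) and for Surface (108353 Pachon and Tinaja peaks), and was 101039 for Tinaja. How often they were met differed by list. Regions of Pachon and Tinaja alone numbered 7768, of Surface and Tinaja alone 4914 and of Pachon and Surface alone 2845. The part of either in the lower Pachon share was not tested.

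**Figure D2:**
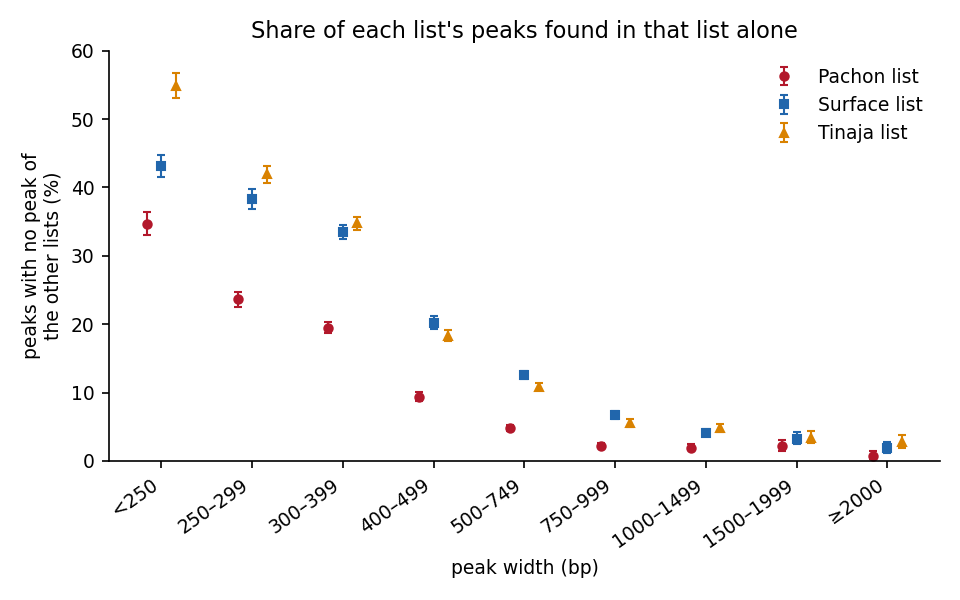
Percentage of each list's chromosomal peaks that met no peak of the other lists (vertical axis), by peak width in bp (horizontal axis), with Wilson 95% intervals as bars. In the narrowest class the Pachon point lies at 34.7%, below Surface at 43.1% and Tinaja at 54.9%, and every list falls to below 3% from 2000 bp upward.

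Few Pachon peaks lay within some bases of the rule's limit of touching, although the number of regions depended on how much overlap was asked for (9747 with a reciprocal overlap of 50%). The Pachon-only regions closest to another form's peak were 238 bp on chromosome 19 (positions 11768217 to 11768454), 1 bp from a Tinaja peak, 322 bp on chromosome 16 (17858753 to 17859074), 3 bp from a Surface peak, and 630 bp on chromosome 3 (32048542 to 32049171), 6 bp from a Tinaja peak. Just outside the rule, a Pachon peak of 424 bp on chromosome 20 (32295871 to 32296294) only touched its neighbours, with 0 bases overlapped. Peaks of 604 bp on chromosome 3 (42702474 to 42703077) and 491 bp on chromosome 8 (3866216 to 3866706) each shared 2 bases with a Surface peak. Only 34 Pachon-only regions (0.606%) lay less than 50 bp from a foreign peak, and only 76 of 44506 shared Pachon peaks (0.171%) were overlapped by less than 50 bases. The median shared Pachon peak was covered over 100% of its width.

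Most Pachon-only regions lay more than 1000 bp from any peak of the other forms. The median gap to the nearest Surface or Tinaja peak was 3937 bp (exact binomial 95% interval of the median 3773 to 4156). It was 752 bp when only a reciprocal overlap of 50% counted as shared. That setting lets a region overlap a foreign peak in part or lie wholly inside a much wider one. The median gap was 7211 bp when peaks under 500 bp were left out of every list. Within 200 bp of such a peak lay 138 regions (2.46%), within 1000 bp 1012 (18.0%) and within 10000 bp 4276 (76.2%), and 47 regions were more than 50000 bp away. The nearest Tinaja peak was closer, at a median of 4973 bp (interval 4776 to 5170), than the nearest Surface peak, at 6727 bp (interval 6472 to 7069). For 3409 regions (60.8%, Wilson 95% interval 59.5 to 62.1) the nearer peak was Tinaja's and for 2114 (37.7%) Surface's, with 86 ties. Tinaja supplied 53.3% of the peaks of those lists, and these shares were not adjusted for that. Surface-only regions too lay closer to Tinaja peaks (median 3400.5 bp) than to Pachon peaks (4041 bp), so this was not particular to Pachon-only regions. Tinaja-only regions lay closer to Pachon peaks (6627 bp) than to Surface peaks (7810 bp). The median gap to the nearest region that Pachon shared with another form was 6968 bp. For comparison, Tinaja-only regions lay a median of 5229 bp and Surface-only regions 2805 bp from the nearest peak of another form.

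**Figure D3:**
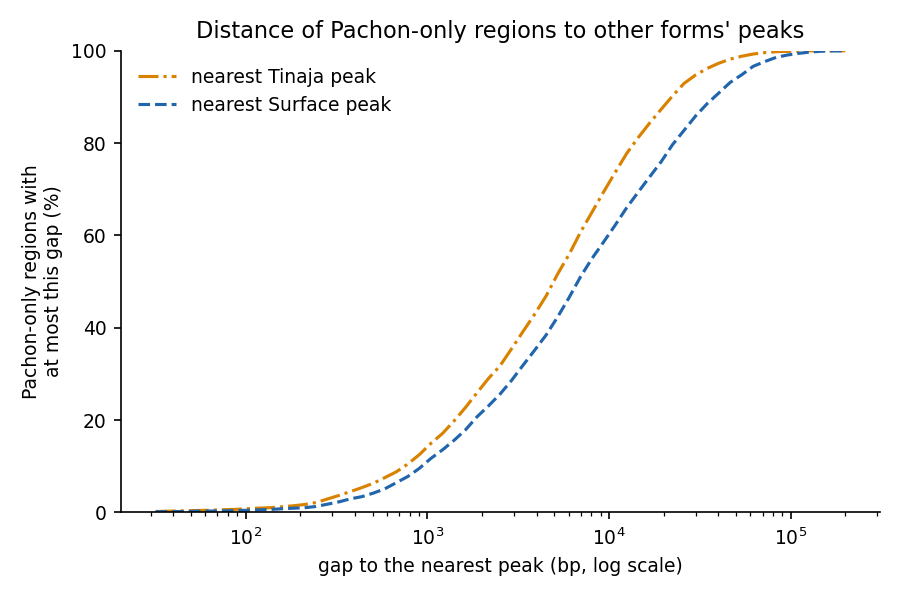
Cumulative percentage of the 5609 Pachon-only regions (vertical axis) whose gap to the nearest Tinaja or Surface peak is at most the value on the logarithmic horizontal axis (bp). At 5000 bp the Tinaja curve has reached 50.2% and the Surface curve 41.2%.

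The length of Pachon-only regions differed little with their isolation. Median length was 305 bp for regions within 200 bp of a foreign peak and 320 bp for gaps above 200 and up to 500 bp. It was 317 bp for gaps above 1000 and up to 5000 bp, and 328 bp for gaps above 10000 and up to 50000 bp. For the 47 regions more than 50000 bp away it was 295 bp, so there was no steady rise. Of the 118 regions of at least 1000 bp, 12 (10.2%) lay within 1000 bp of a foreign peak and 34 (28.8%) lay beyond 10000 bp, against 19.1% and 23.4% of the regions under 300 bp. Wide Pachon-only regions thus lay close to a foreign peak less often than narrow ones, a difference that was not tested. The rule bears on it, since a wide Pachon peak near a foreign peak touches it more easily and then leaves the class.

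The widest member was on chromosome 6 (positions 1417674 to 1420757), a single Pachon peak of 3084 bp with the nearest Tinaja peak 22562 bp and the nearest Surface peak 23054 bp away. A peak of 2341 bp followed on chromosome 23 (11503232 to 11505572), 7175 bp from Tinaja's and 2562 bp from Surface's nearest peak. On chromosome 15 (1793597 to 1795852) a peak of 2256 bp lay 1223 bp from a Tinaja peak but 14153 bp from a Surface peak. These differ in setting, the first standing alone and the third lying close to a region that Pachon shared, 421 bp away. Peaks of 2126 bp on chromosome 12 (13868852 to 13870977) and 2078 bp on chromosome 3 (37782878 to 37784955) were next, the first of them 3197 bp and the second 12701 bp from the nearest foreign peak. A peak of 2011 bp on chromosome 9 (33792764 to 33794774) had its nearest foreign peak, of Tinaja, at 4289 bp. The remaining members among the 10 widest were 1985 bp on chromosome 8 (15116195 to 15118179), 1941 bp on chromosome 19 (1458596 to 1460536), 1872 bp on chromosome 24 (45588683 to 45590554) and 1831 bp on chromosome 20 (22393084 to 22394914), all between 1454 and 2675 bp from the nearest foreign peak. All 10 exceeded the median Pachon-only length of 322 bp more than 5 times over.

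Every chromosome had Pachon-only regions well above the median length. The longest of each chromosome ranged from 757 bp on chromosome 11 (11562125 to 11562881) to the 3084 bp on chromosome 6, with a median of 1793 bp over the 25, and 23 of them reached 1000 bp. The other that did not was 962 bp long, on chromosome 22 (1606149 to 1607110). Outside the 10 widest, the longest of their chromosomes included 1798 bp on chromosome 4 (20053953 to 20055750), 1797 bp on chromosome 18 (32054031 to 32055827) and 1793 bp on chromosome 7 (31894205 to 31895997). The last was the closest of the 25 to a foreign peak, with Tinaja's 338 bp away and Surface's 8693 bp away. On chromosome 16 a region of 1690 bp (2804611 to 2806300) had its nearest foreign peak at 20891 bp, and on chromosome 5 one of 1164 bp (38889059 to 38890222) had it at 18194 bp.

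The 5 Pachon-only regions farthest from any foreign peak were mostly narrow. A region of 226 bp on chromosome 24 (21072810 to 21073035) had the widest gap, 118353 bp, followed by 566 bp on chromosome 14 (8313675 to 8314240) at 111059 bp and 449 bp on the same chromosome (8297785 to 8298233) at 102742 bp. Regions of 223 bp on chromosome 18 (20885188 to 20885410) and 241 bp on chromosome 13 (6424168 to 6424408) lay 100653 and 96269 bp away. The 3 outside chromosome 14 were within 20 bp of the shortest width in the list.

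Pachon-only regions occurred on all chromosomes in near proportion to the number of open regions there. Their number ranged from 53 on chromosome 11 to 472 on chromosome 3, and across the 25 chromosomes it followed the number of all regions closely (Pearson r = 0.96, Spearman rho = 0.94, both counts taken from the same lists). Their share ranged from 5.94% on chromosome 11 (Wilson 95% interval 4.57 to 7.68) to 8.92% on chromosome 6 (366 of 4104 regions, interval 8.08 to 9.83). Intervals lay above the genome-wide 7.45% on 2 chromosomes, 6 and 8 (8.75%), and below it on 2, 12 (6.20%) and 22 (6.05%). The intervals were not adjusted for the 25 chromosomes looked at. On all 25 chromosomes Pachon-only regions were fewer than Tinaja-only and fewer than Surface-only regions. Median length per chromosome stayed between 303 and 339.5 bp. Along the chromosomes, cut into 10 equal parts up to the last peak, the share lay between 6.81% in the fifth part and 8.26% in the seventh, with 7.92% in the first and 7.88% in the last, so it was not confined to chromosome ends or middles.

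**Figure D4:**
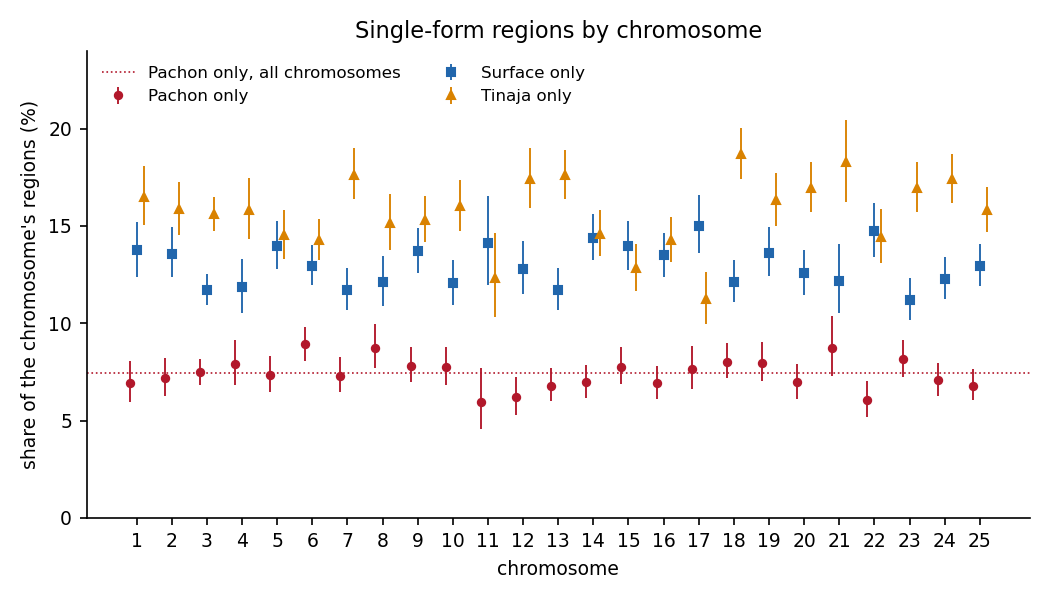
Share of each chromosome's regions (percent, vertical axis) held by Pachon, Surface or Tinaja alone, with Wilson 95% intervals as bars and the genome-wide Pachon-only share of 7.45% as a dotted line. Pachon-only shares lie between 5.94% and 8.92%, below the other single-form shares on every chromosome.

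Pachon-only regions were mostly single. Neighbouring ones on a chromosome were a median of 100 kb apart, and 4446 of them had a region of another class on both sides. The remaining 1163 (20.7%, Wilson 95% interval 19.7 to 21.8) had another Pachon-only region next in order, where 14.2% of all chromosomal regions were next to one. The corresponding share of having a neighbour of the own class was 41.1% for Tinaja-only and 31.4% for Surface-only regions, classes that are also larger. Among the classes, Pachon-only neighbours were found beside 17.3% of regions of both caves and 17.1% of Tinaja-only regions, and beside 14.3% of regions of Pachon and Surface, 12.4% of Surface-only regions and 12.1% of regions of all 3 forms. No test was made of these shares, which neighbouring regions do not supply independently.

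The region closest to a Pachon-only region was less often one shared by all forms than is the case for chromosomal regions at large, 34.8% against 42.9%. It was more often Tinaja-only (19.6% against 15.3%), of both caves (12.8% against 10.2%) or Pachon-only (11.9% against 7.40%), and less often Surface-only (11.2% against 13.8%). For Pachon and Surface it was 3.80% against 3.90%. Where the nearest region lay within 1000 bp, it was Pachon-only in 15.6% against 6.46% and of all 3 forms in 30.4% against 43.4%. Where it was more than 10000 bp away, the shares were 10.9% against 9.91% for Pachon-only, 34.5% against 36.5% for all 3 forms and 22.8% against 21.9% for Tinaja-only regions, and 4.10% against 3.05% for regions of Pachon and Surface.

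Of runs of consecutive Pachon-only regions, 447 had 2 regions, 67 had 3, 14 had 4 and 2 had 6. Such runs were not particular to Pachon. Runs of 4 or more numbered 16 for Pachon-only, 68 for Surface-only and 181 for Tinaja-only regions, the last 2 being larger classes. The longest run had 6 regions in Surface-only and 13 in Tinaja-only regions. A run of 6 on chromosome 14 (8297785 to 8402006) spread over 104 kb, with lengths of 449, 566, 291, 361, 610 and 508 bp in order. It lay in a stretch of 230 kb between regions of all 3 forms in which neither Surface nor Tinaja had a peak, and it holds 2 of the 5 most isolated members. The other run of 6, on chromosome 21 (3707964 to 3791687), spread over 83.7 kb with lengths of 1013, 540, 345, 304, 431 and 412 bp, and its first region is the longest Pachon-only region of that chromosome. A region of all 3 forms lay 3354 bp before it and a Tinaja-only region 47787 bp after it. Of the runs of 4, the first in chromosome order was on chromosome 2 (29708767 to 29731744), with regions of 535, 487, 250 and 405 bp over 23.0 kb, followed after 1290 bp by a region of both caves. The regions of both runs of 6 were 291 bp or longer.

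Observed shares of Pachon-only regions differed among windows of 1 Mb, and how far that spread exceeds counting error was not tested. Of 938 windows of 1 Mb with at least 20 regions, 9 (0.959%) held none, the median window held 6, and the median share was 7.25% (5th to 95th percentile 2.32 to 14.9). The highest share, 25.6% (10 of 39 regions, Wilson 95% interval 14.6 to 41.1), was on chromosome 6 from 48000001 to 49000000. It was followed by 10 of 42 on chromosome 16 from 17000001 to 18000000, by 13 of 56 in the first 1000000 bases of chromosome 6, by 5 of 22 on chromosome 21 from 7000001 to 8000000 and by 15 of 70 on chromosome 6 from 5000001 to 6000000. Chromosome 6 thus supplied 3 of the 5. Without those 3 windows its share was 8.33% (interval 7.50 to 9.23), against 8.92% with them. The windows were picked as the highest of 938, and their counts are small.

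In the 5 densest windows, the regions that were not Pachon-only had a Surface peak less often than elsewhere. Of 176 such regions, 105 (59.7%) had a Pachon peak, 160 (90.9%) a Tinaja peak and 95 (54.0%) a Surface peak. Over all 938 windows the shares were 62.0%, 82.0% and 71.9%. All windows, the 5 densest among them, were also ranked by their Pachon-only share and cut into 5 equal groups. Neither choice of windows is independent of the Surface share. Where a region of Pachon and Surface lacks its Surface peak, it becomes Pachon-only. It then raises the window's rank and leaves the other regions, which alters their Surface share. From the lowest to the highest group, the share of the other regions with a Surface peak was 76.7%, 74.2%, 72.8%, 70.4% and 62.8%. For Tinaja it was 81.1%, 82.0%, 81.6%, 81.7% and 84.2%, and for Pachon 63.2%, 62.9%, 62.3%, 61.9% and 59.1%. Regions of both caves were 2.37 times as numerous as those of Pachon and Surface in the lowest group and 3.57 times in the highest. The number of regions per window moved as well, with 84.9 in the lowest and 71.2 in the highest group, and the median length of the other regions was 586 bp in the lowest and 544 bp in the highest group. The part of these in the pattern was not tested.

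Fewer Surface peaks were found also where Tinaja-only regions were dense. In windows ranked by their Tinaja-only share, a Surface peak was present in 84.5% of the other regions in the lowest group and in 67.3% in the highest. Ranked by Surface-only share, the lowest group had Pachon peaks in 71.1% and Tinaja peaks in 86.6% of the other regions, and the highest group 75.3% and 87.8%. Surface peaks were present in 53.9% of the other regions in that lowest group and in 66.6% in that highest group. Windows rich in regions of 1 cave form thus held fewer Surface peaks among their other regions. This is bound by the rule. Regions that are not Pachon-only hold a Surface or a Tinaja peak by definition. Their Surface share thus falls only as those with a Tinaja but no Surface peak increase. In the Pachon-only ranking, Tinaja-only regions rose from 14.0% (lowest group) to 22.8% (highest) of them and regions of both caves from 9.25% to 14.3%. A Pachon or Surface peak binds the Tinaja-only ranking in the same way. The reverse, fewer cave peaks in Surface-rich windows, cannot be read from the Surface-only ranking. Regions that are not Surface-only hold a Pachon or a Tinaja peak by definition, so the share with a cave peak of either kind was fixed. All rankings used the same peak lists as these shares, which are a description and not a test.

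**Figure D5:**
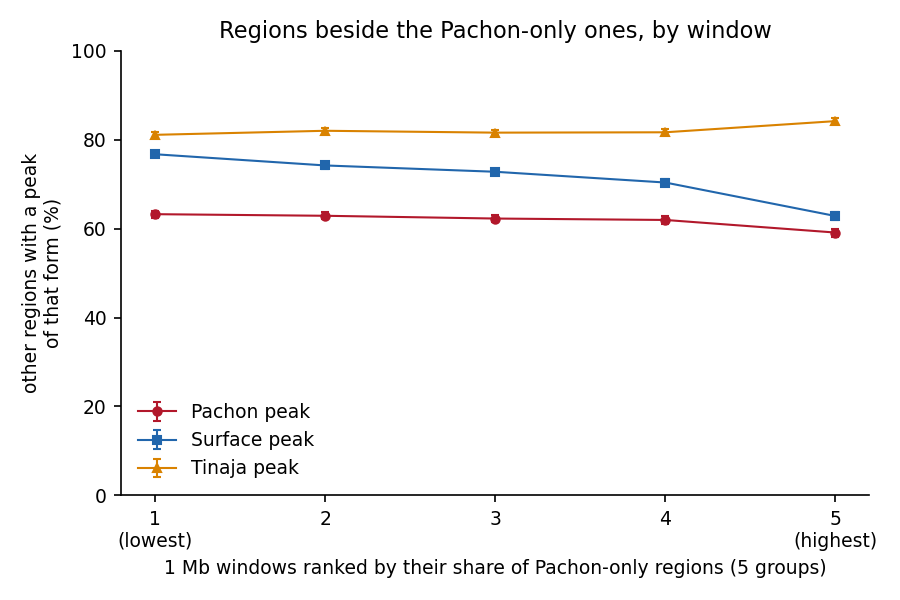
Percentage of regions other than Pachon-only ones that have a Pachon, Surface or Tinaja peak (vertical axis), in 5 equal groups of the 938 windows of 1 Mb ordered by their Pachon-only share (horizontal axis, lowest to highest), with Wilson 95% intervals as bars. The Surface line goes down to 62.8% in the highest group, where the Tinaja line is at 84.2%.

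Shared elements beside Pachon-only regions gave a further measure, the width of the peaks there, which the rule did not use directly. It is not independent of the rule. A Surface or Tinaja peak wide enough to reach a Pachon peak would have removed that region from the class, above all at short distances. A region with exactly 1 peak of each form lay within 10 kb of 2547 Pachon-only regions (45.4%), and 2376 different shared regions served as the nearest one. Their median width was 565 bp in Pachon, 619 bp in Tinaja and 615 bp in Surface, against 589, 628 and 646 bp over all 30589 such regions. The median log2 ratio of Pachon over Surface width was -0.05 beside Pachon-only regions and -0.07 over all. The Pachon peak was wider than the Surface peak in 42.5% of them (Wilson 95% interval 40.5 to 44.5), against 40.2% of all. That share was 42.7% beside Tinaja-only regions and 39.1% beside Surface-only regions at the same distance. The value beside Pachon-only regions was thus not particular to them. For Pachon over Tinaja the median log2 ratio was -0.05 beside Pachon-only regions and -0.04 over all, and the Pachon peak was the wider in 39.7% (interval 37.7 to 41.7), against 39.0%. In Pachon, shared peaks close to a Pachon-only region were therefore scarcely wider, relative to the other forms, than shared peaks in general.

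Within 1 kb the Pachon peak was the wider somewhat more often, against Surface and Tinaja alike, on 358 shared regions. The intervals there hold the values found within 10 kb, 42.5% against Surface and 39.7% against Tinaja. There the median log2 ratio of Pachon over Surface width was -0.03 and 46.4% of Pachon peaks were the wider (interval 41.3 to 51.5), and for Pachon over Tinaja the values were -0.03 and 43.9% (interval 38.8 to 49.0). Beside Surface-only regions at the same distance, the median log2 ratio of Pachon over Surface width was -0.15 and the Pachon peak was wider in 33.6% of 1351 regions. Beside Tinaja-only regions the median log2 ratio of Pachon over Tinaja width was -0.06 and the Pachon peak was wider in 38.7% of 631 regions. The Pachon peak was wider than the Surface peak in 42.5% of those 631 (interval 38.7 to 46.4). Beside Surface-only regions it was wider than the Tinaja peak in 42.1% (interval 39.5 to 44.8). These intervals overlap those beside Pachon-only regions, which does not settle whether the classes differ, and that was not tested. For Pachon over Surface, the interval beside Surface-only regions, 31.1 to 36.2, lay below that beside Pachon-only regions. The limit set by the rule, given above, applies to that contrast too, and it was not tested.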

How the data were processed

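Livers of 3 forms of Astyanax mexicanus were profiled by ATAC-seq on about 70000 nuclei with 22 to 24 min of tagmentation, per the labels' protocols. Tools named in the submitters' processing notes are MACS2, SAMtools, Bowtie2 and bcl2fastq 2.20. For their settings, the genome build, the peak threshold and any pooling of replicates, the answer is not given in the sources used here. The authors deposited 1 list per form with the start and end of each peak in 6 columns. The deposited score was 0 for every peak, so no peak could be ranked by strength. No list came with read counts.

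Coordinates are those of the lists, written 1-based. Gene positions on AstMex3 were left out, since peaks passed the last gene on 4 of 25 chromosomes.

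Peaks that overlapped or touched were joined, and a region's class is the set of lists with a peak there. Gaps, order, windows of 1 Mb and widths were computed with scipy 1.17.1, pandas 2.3.3 and numpy 2.4.6 under Python 3.11.15. On 20000 simulated regions, built from partly overlapping peaks and kept apart from each other, every class was recovered (100%). Peaks that only touch and peaks lying inside another were not simulated. No test between forms was made. Named are the longest region of each chromosome, the 10 longest, the 5 most isolated, the 3 longest runs, the 5 densest windows and 3 peaks on each side of the rule. Members, lists and this rule were chosen with earlier results of these data known.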

Additional observations from a re-analysis of the deposited data

How the results depend on the processing

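No paired analysis was possible because each form has 1 peak list. Of 73 alternative values, 34 stayed within 1.5 times a count or within the 95% interval of a share or median, and 39 moved beyond it. Counts, shares and medians of a single class have no direction, so a reversal could not be scored. With a reciprocal overlap of 50%, Pachon-only regions numbered 9747, or 19.4% of Pachon regions, with a median length of 336 bp, a median gap of 752 bp, 22.8% next to another and chromosome shares of 9.75% to 12.9%. Merging peaks within 200 bp gave a share of 11.2% and a gap of 4158 bp. Merging within 1000 bp gave 10.1%, 5428 bp and 18.3% next to another. With 500 bp around each midpoint the share was 12.4%, the gap 3289 bp and the length 500 bp by construction. With peaks of at least 500 bp in every list there were 2621 regions (10.7%), with a median length of 601 bp, a gap of 7211 bp and 16.6% next to another. With that minimum for Pachon peaks alone there were 849 (3.45%), with 625 bp, 4424 bp, 6.60% next to another, a longest run of 3 and chromosome shares of 0.767% to 1.76%. The lower counts and shares there follow from the removal of Pachon peaks alone. With equal numbers of widest peaks, which shortens only the other lists, the share was 14.2%, the length 314 bp, the gap 4352.5 bp, 25.1% were next to another and the highest chromosome share was 11.3%. On all sequences there were 8489 regions (12.0%), with 326 bp and 22.2% next to another, and chromosome shares do not change there. Counting only neighbours within 10 kb gave 12.7%. Windows of 500 kb with at least 10 regions gave a densest window of 41.2%, and ranking windows by number one of 16.1%. Of 46 named regions, 43 kept their class with merging within 200 bp, 41 within 1000 bp and 43 with 500 bp peaks. All 46 kept it under reciprocal overlap and 31 with a minimum width, which drops the narrow ones. Those last values were fixed in advance. A peak that touches no foreign peak stays Pachon-only when more overlap is asked for. It also stays so when foreign peaks are left out, so 31 only counts the named peaks of at least 500 bp. Such fixed values are among the 34 that stayed. The setting without the dense windows of chromosome 6 was added after the data were seen. The depth of the libraries is unknown, so the smallest peak each could have shown is unknown too.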
